A study of Mus musculus with 6 samples.

Results

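The genes described here are 10 members of the fibroblast growth factor (FGF) family and its receptors, the ligand genes *Fgf1*, *Fgf2*, *Fgf7*, *Fgf9*, *Fgf10* and *Fgf18* and the receptor genes *Fgfr1*, *Fgfr2*, *Fgfr3* and *Fgfr4*. All 10 were found by symbol among the 23420 genes of each count table. The set was selected on the measured counts of *Fgf1*, which were far higher in the luminal library that carries the *Lif* eKO label than in the control. The read counts and ratios of the members are therefore given as a description.

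RNA was sequenced from the luminal layer of the mouse uterus, taken by laser microdissection, and from blastocysts, both at 8 pm on day 4 of pregnancy. The control females were Lif-floxed/floxed without Cre and received PBS. The eKO females were Lif-floxed/floxed Ltf-Cre/+, which removes *Lif* (leukemia inhibitory factor) where the lactoferrin promoter drives Cre, in the uterine epithelium and not in the stroma, and also received PBS. The third group had the eKO genotype and was given recombinant Lif (rLif), 20 µg per head, first at 10 am and again at 6 pm, with dissection 2 h later. The blastocysts of all 3 groups were labelled Lif-floxed/+, so embryos in every group carried a wild-type allele beside the floxed one. The groups differed in the mother they came from. That label does not give the Cre allele, which embryos of the eKO mothers could have inherited. The age of the females was not given in the sources used here.

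Each of the 6 groups was 1 library made from pooled material. No comparison had replicates, no test was made, and all intervals are 95% intervals that cover counting error only. Total counts ranged from 18996158 to 28460465 per library. *Lif* had 0 counts in the control-labelled luminal library, 28 with the eKO label and 0 with the rLif label. Its deletion could thus not be seen in these counts. The paper places *Lif* before attachment in the glands, and its floxed allele removes only part of the gene. The counts do not bear out the labels, since *Lif* reads were seen in the untreated eKO-labelled library and not in the control-labelled one. The reason for this was not tested. The luminal groups are therefore named by their labels only, and values in a row of 3 are given in the order control, eKO and eKO with rLif (the rLif-labelled library). In blastocysts *Lif* had 1447, 1736 and 1250 counts. All 10 luminal epithelial markers were detected in the 3 luminal libraries. Of the 7 markers of the inner cell mass, *Pou5f1*, *Nanog* and *Zfp42* were at 0 there. *Klf4*, with 900, 520 and 783 counts, and *Klf2*, with 852, 484 and 266, were detected in all 3. *Sox2* had 8, 19 and 0 counts and *Esrrb* 0, 4 and 0. The 3 blastocyst libraries held all 8 trophectoderm and all 7 inner cell mass markers. Each also held 9 of the 10 luminal epithelial markers, and each luminal library held 7 of the 8 trophectoderm markers. Detection of these lists alone thus does not separate the tissues.

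FGF ligands are secreted proteins that bind receptor tyrosine kinases on the cell surface together with heparan sulfate. The bound receptor signals through FRS2 and GRB2 to the ERK cascade, which induces transcription factors of the ETS family and inhibitors such as the Sprouty proteins and DUSP6 that limit the same signal. In many organs FGF7 and FGF10 are made by mesenchyme and act on the epithelial form of FGFR2, whereas FGF9 is often made by epithelium and acts on receptors of the mesenchyme. In the blastocyst, FGF4 from the inner cell mass acts on FGFR1 and FGFR2 to specify primitive endoderm and to maintain trophoblast stem cells.

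The 250 bases before the start site of *Fgf9* and *Fgf18* are shown because these ligands lay on opposite sides of the same luminal comparison. The sequences are RefSeq's on GRCm38.p6, 5′ to 3′ on the strand of the gene, with each CpG in capitals. The *Fgf9* window is chr14:58072436-58072685 on the plus strand, and the *Fgf18* window is chr11:33147401-33147650 on the minus strand.
Fgf9: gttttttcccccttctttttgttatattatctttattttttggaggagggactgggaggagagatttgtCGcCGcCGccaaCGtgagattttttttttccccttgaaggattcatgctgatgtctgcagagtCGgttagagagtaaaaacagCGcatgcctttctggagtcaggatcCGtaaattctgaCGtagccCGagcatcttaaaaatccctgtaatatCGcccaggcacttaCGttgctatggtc
Fgf18: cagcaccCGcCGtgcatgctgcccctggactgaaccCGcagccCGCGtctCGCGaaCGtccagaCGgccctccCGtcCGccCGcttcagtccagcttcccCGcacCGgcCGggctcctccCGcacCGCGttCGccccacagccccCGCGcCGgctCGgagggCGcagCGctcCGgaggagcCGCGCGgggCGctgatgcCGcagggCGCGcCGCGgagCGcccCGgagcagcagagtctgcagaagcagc

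The *Fgf18* window held 37 CpG and 77.2% G and C, more CpG than 97.8% of the 32851 promoters of this length in the table. The *Fgf9* window held 11 CpG and 44.8% G and C, beside medians over all promoters of 6 CpG and 52.4%. Of the 10 members, 8 had a promoter entry, and *Fgfr3* had 2. *Fgfr2* had the fewest CpG of these windows, 2, and *Fgf7* had 6. Motifs were searched for on both strands in these windows. The letters TTCNNNGAA, to which STAT factors bind, were in 7.02% of all promoters, CCGGAAG, bound by ETS factors, in 6.91%, TATAAA, the TATA box, in 12.4%, and the progesterone receptor motif in 0.387%. None of the 9 member windows contained any of them, which says only that these letters were not in these 250 bases.

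In the luminal layer *Fgf1*, on which the set was selected, *Fgf9* and *Fgf18* differed between the 3 libraries far more than *Fgfr2*, the main receptor. The scarce receptor *Fgfr4* also differed, with 26, 0 and 23 counts. In the control-labelled library most of the ligand transcripts were *Fgf9*, in the eKO-labelled library they were *Fgf1* and *Fgf18*, and in the rLif-labelled library *Fgf9* again led. *Fgfr2* was the leading receptor in all 6 libraries. In blastocysts *Fgf10* was the highest of the 6 ligands in all 3 libraries, below *Fgf4*, which is not one of them. None of *Fgf10*, *Fgfr1*, *Fgfr2*, *Fgfr3* and *Fgfr4* differed 2-fold between the blastocyst libraries. Levels are given as CPM, read counts scaled to a common library size, and where genes are compared with each other as CPM per kilobase of the exon length in the tables.

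**Figure D1:**
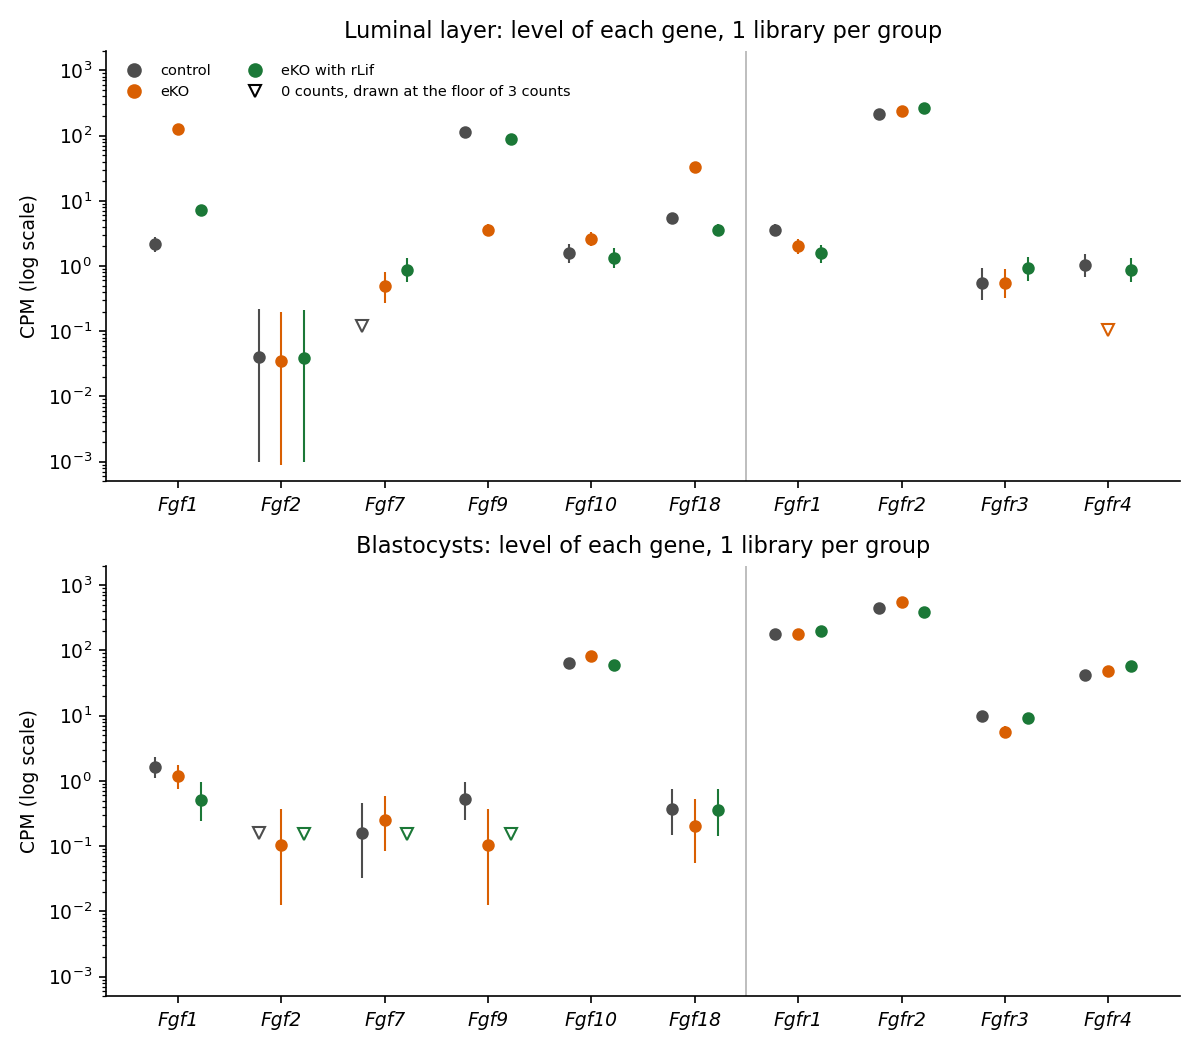
Level of the 10 genes in CPM on a log scale in the luminal layer (top) and in blastocysts (bottom), 1 point per library, with 95% counting intervals and open triangles for 0 counts, drawn at the floor of 3 counts. Luminal *Fgf1* and *Fgf18* are higher and *Fgf9* and *Fgfr4* lower in the eKO-labelled library than in the other 2, while *Fgfr2* lies between 216 and 267 CPM in all 3.

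A gene was called past the size rule when the whole 95% interval of its log2 ratio was above 1 or below -1, which is a 2-fold difference. It was applied to genes with at least 10 counts over the 3 libraries of a tissue. For eKO against control in luminal libraries, 5 of the 9 members with enough counts passed it, 3 higher and 2 lower. Of all 15694 genes, 17.2% passed it, 8.08% higher and 9.15% lower. The members were chosen with this comparison known, so nothing is read from their count. The median log2 ratio of the 9 members was 0.16, with genes at 0 set to their bound, and that of all genes was 0.0065.

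*Fgf1*, which encodes a ligand able to bind every FGF receptor, lies on chromosome 18 from 38838673 to 38918699 on the minus strand (GRCm38/mm10, as all positions here) and is protein coding. It had 55 counts in the control-labelled luminal library, 3662 with the eKO label and 191 with the rLif label. These counts correspond to 2.18 CPM (1.64 to 2.84), 128 CPM (123 to 132) and 7.34 CPM (6.33 to 8.45). The eKO library was 58.5-fold above control, a log2 ratio of 5.87 (5.49 to 6.28). The set was selected on this difference, so its size is only a description. With rLif the level was 17.4-fold below the eKO library, log2 -4.12 (-4.34 to -3.91), but still 3.37-fold above control, log2 1.75 (1.31 to 2.21). The treated library thus lay between the other 2 and nearer to control.

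*Fgf18* (chromosome 11, 33117431 to 33147400, minus strand), a ligand known for its part in bone and lung growth, had 140, 964 and 94 counts in the luminal layer. The eKO library was 6.05-fold above control, log2 2.60 (2.34 to 2.86). With rLif it was 9.30-fold below the eKO library, log2 -3.22 (-3.54 to -2.91). The treated library was also below control, at a log2 ratio of -0.62 (-1.01 to -0.23), which did not pass the size rule. Unlike *Fgf1*, *Fgf18* with rLif therefore lay on the lower side of the control value.

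*Fgf9* (chromosome 14, 58072686 to 58112720, plus strand) moved the other way. It had 2879 counts in the control-labelled luminal library, 104 with the eKO label and 2284 with the rLif label. The corresponding levels were 114 CPM (110 to 118), 3.62 CPM (2.96 to 4.39) and 87.7 CPM (84.2 to 91.4). The eKO library was 31.5-fold below control, log2 -4.98 (-5.27 to -4.69). The treated library was 24.2-fold above the eKO library, log2 4.60 (4.31 to 4.90), and reached a log2 ratio of -0.38 (-0.46 to -0.30) against control, or -0.56 when total counts were used for scaling.

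Of the 6 gland markers in the table, 5 were lower in the eKO-labelled than in the control-labelled library, and *Spink3* was higher. They summed to 2364, 1435 and 2170 CPM in the luminal layer, of which *Wfdc2* made up 99.3%, 98.8% and 98.4%, and the other 5 summed to 17.4, 17.1 and 35.6 CPM. *Foxa2*, the defining one, had 3, 0 and 10 counts. Of the 12 markers of stroma, all detected in each library, 10 were higher and 2, *Hoxa11* and *Hand2*, lower in the eKO-labelled than in the control-labelled library. They summed to 843, 1268 and 893 CPM, and to 617, 768 and 573 CPM without *Col3a1*, the most abundant. Immune markers summed to 887, 797 and 758 CPM, but to 142, 185 and 209 CPM without *Lyz2*, the most abundant. Endothelial markers summed to 48.2, 69.0 and 92.1 CPM, and smooth muscle markers to 102, 97.7 and 64.2 CPM. The part of these markers in the ratios of the FGF genes was not tested. In pooled tissue, fewer cells of a type and less RNA per cell cannot be told apart.

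*Fgf7* and *Fgf10*, ligands that mesenchyme typically makes, were low in all luminal libraries. *Fgf7* had 0, 14 and 23 counts. Against the floor of 3 counts it was at least 4.10-fold higher than control in the eKO library and at least 7.43-fold higher in the treated library. *Fgf10* had 40, 75 and 35 counts, at log2 0.72 (0.15 to 1.31) for eKO against control and -0.96 (-1.58 to -0.36) for eKO with rLif against eKO, and passed the size rule in neither. *Fgf2* had 1 count in each luminal library. Its exons in the table cover 695 bases, 10.2% of the 6782 exon bases that GENCODE M21 gives it, so reads from most of its exon bases were not counted.

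When levels were compared per kilobase, *Fgf9* made up 81.9% of the summed level of the 6 ligands in the luminal control-labelled library, 1.34% in the eKO-labelled one and 78.3% in the rLif-labelled one. *Fgf1* took 1.66%, 50.003% and 6.93%, and *Fgf18* took 15.2%, 47.4% and 12.3%. In the eKO library *Fgf1*, at 32.6 CPM per kilobase, and *Fgf18*, at 30.9, had overlapping intervals. The summed ligand level was 33.6, 65.2 and 27.1 CPM per kilobase in the 3 libraries. The leading ligand thus differed. The sum was highest in the eKO library, where *Fgf1*, on which the set was selected, made up 32.6 of the 65.2. *Fgf1* gave 0.557 in control and 1.88 with rLif, so nothing is read from the height of the sum.

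**Figure D2:**
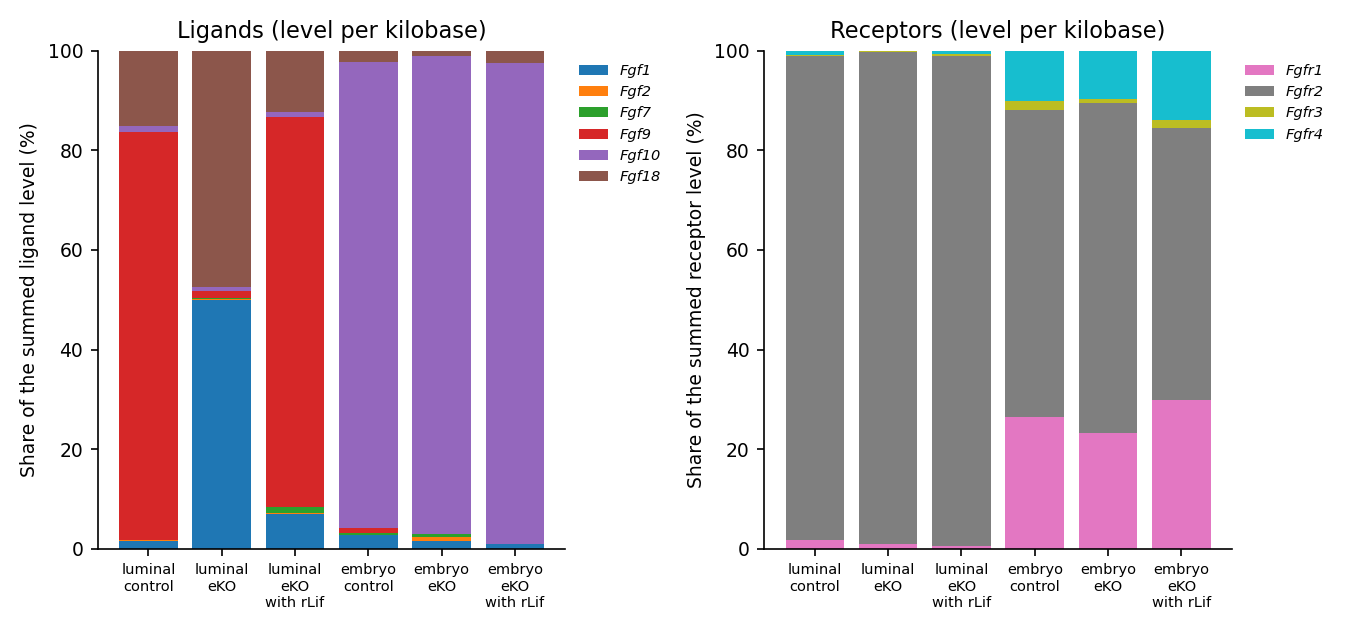
Share of each gene in the summed level per kilobase, in percent, of the 6 ligands (left) and the 4 receptors (right), 1 stacked bar per library. Luminal ligand bars are mostly *Fgf9* in the control-labelled and rLif-labelled libraries and mostly *Fgf1* and *Fgf18* in the eKO-labelled one, while *Fgf10* fills over 93% of each blastocyst (embryo) bar, which does not include *Fgf4*.

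Of the receptors, *Fgfr2* (chromosome 7, 130162451 to 130266808, minus strand) made up nearly the whole luminal receptor level. It had 5458, 6923 and 6945 counts in the luminal layer, or 40.4, 45.1 and 49.9 CPM per kilobase, and took 97.2%, 98.8% and 98.4% of the summed receptor level. Its log2 ratio was 0.16 (0.11 to 0.21) for eKO against control and 0.30 (0.25 to 0.35) for eKO with rLif against control, well inside the limit of the size rule. These values were 0.088 and 0.13 when total counts were used for scaling. Counts per gene do not resolve the epithelial and mesenchymal splice forms of the receptor.

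The other 3 receptors were scarce in the luminal layer. *Fgfr4*, a receptor of the same family, had 26, 0 and 23 counts. It was at least 9.86-fold lower in the eKO library than in control and at least 8.46-fold higher with rLif than in the eKO library. *Fgfr1*, the main mesenchymal receptor in many organs, had 91, 58 and 41 counts, and was highest in the control-labelled library. Its log2 ratio against control was -0.84 (-1.34 to -0.34) in the eKO library and -1.19 (-1.76 to -0.65) with rLif, and neither passed the size rule. *Fgfr3* had 14, 16 and 24 counts, with intervals that overlapped.

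For luminal eKO with rLif against control, 2 of 9 members passed the size rule, *Fgf1* and *Fgf7*, both higher. Over all genes the share was 9.16%, 4.12% higher and 5.04% lower. For luminal eKO with rLif against eKO, 4 of 9 members passed, *Fgf9* and *Fgfr4* higher and *Fgf1* and *Fgf18* lower. Over all genes it was 15.6%, 7.88% higher and 7.77% lower. These comparisons share libraries with each other and with eKO against control, so they are not independent.

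**Figure D3:**
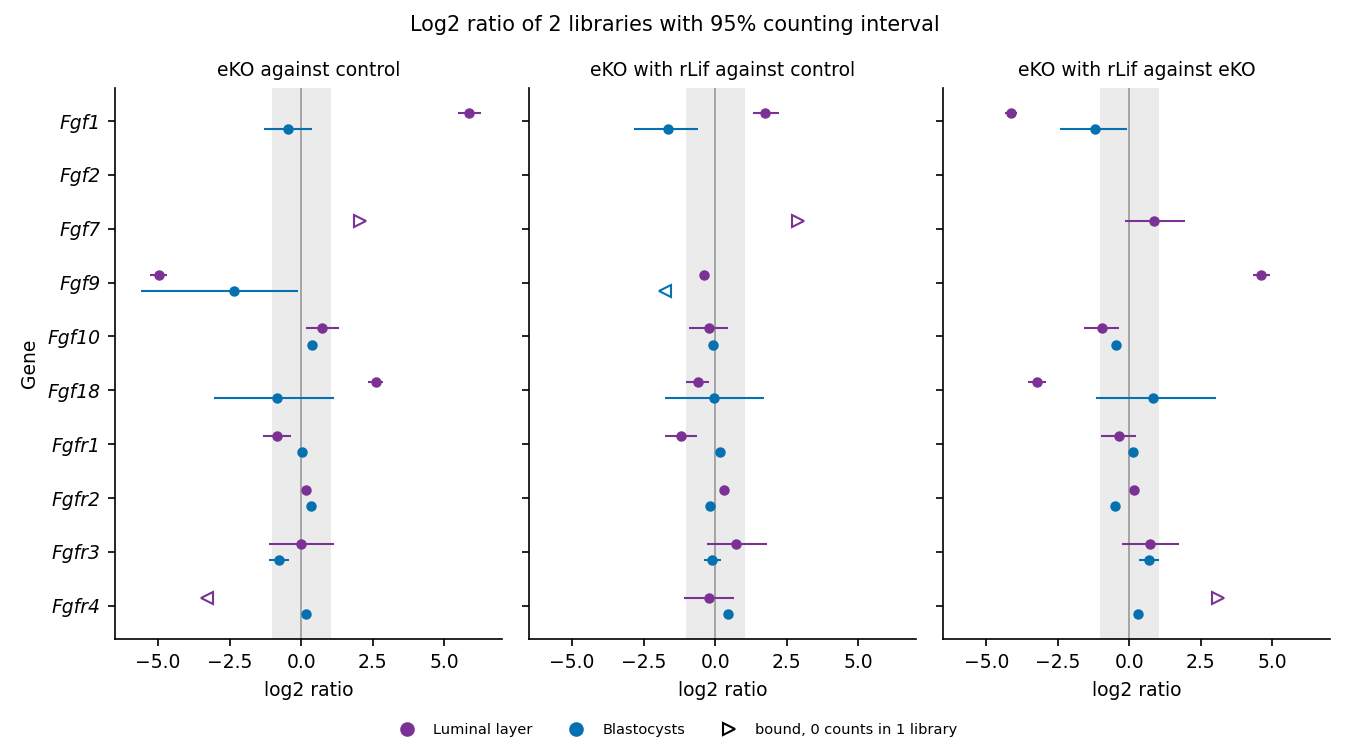
Log2 ratio of each gene with its 95% counting interval in the luminal layer and in blastocysts for the 3 comparisons, with open triangles for bounds where 1 library had 0 counts and a grey band for the limit of 1 in either direction. Luminal *Fgf1*, *Fgf9* and *Fgf18* lie outside the band on opposite sides in the left and right panels, and the blastocyst points of *Fgf10*, *Fgfr1*, *Fgfr2* and *Fgfr4* lie within it. *Fgf2* in both tissues and *Fgf7* in blastocysts had fewer than 10 counts and are not drawn.

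The genes whose luminal pattern was most like that of *Fgf1* were *Ces1d*, *Gpr30* and *Psg17*, at distances of 0.52, 0.66 and 0.75 in log2(CPM + 2) over the 3 libraries, each gene centred on its own mean, among 13782 genes with at least 50 counts. *Ces1d* had 227, 6171 and 573 counts, *Gpr30* had 279, 6255 and 615, and *Psg17* had 19, 1112 and 60. The nearest to *Fgf9* were *Pcsk6*, *Rnf39* and *Il20ra*, at distances of 0.095, 0.10 and 0.38. With a pseudocount of 0.5 in place of 2, only 1 of these 3 genes was still among the nearest 3, against 2 of 3 for *Fgf1*. *Pcsk6* had 1229, 7 and 942 counts, *Rnf39* had 2583, 98 and 2259, and *Il20ra* had 1958, 98 and 2116. *Ces1d* and *Psg17* belong to families of similar genes, so their counts are uncertain. A likeness over 3 libraries is a description.

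In blastocysts the receptors were far more abundant than the 6 ligands, with summed levels of 134.1, 156.7 and 133.7 CPM per kilobase for the receptors and 14.8, 18.7 and 13.5 for the ligands in the libraries from control, eKO and rLif-treated eKO mothers. *Fgfr2* had 8444, 10864 and 7591 counts and took 61.8%, 66.4% and 54.6% of the receptor level. *Fgfr1* (chromosome 8, 25518772 to 25575714, plus strand) had 3377, 3551 and 3884 counts and took 26.4%, 23.2% and 29.8%. *Fgfr4* had 816, 932 and 1143 counts. *Fgfr3* had 187, 111 and 177 counts and was lowest in embryos from eKO mothers. In each library the order by level per kilobase began with *Fgfr2* and then *Fgfr1*, with intervals that did not overlap. The exons of the table cover 50.7% of the GENCODE exon bases of *Fgfr1* and 51.8% of those of *Fgfr2*, against 88.8% for *Fgfr4*, which limits comparisons of level between genes.

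The blastocyst ratios of the receptors were small. For eKO against control the log2 ratio of *Fgfr2* was 0.33 (0.29 to 0.37), that of *Fgfr1* was 0.04 (-0.03 to 0.10), that of *Fgfr4* was 0.16 (0.02 to 0.29) and that of *Fgfr3* was -0.79 (-1.14 to -0.44). For eKO with rLif against eKO they were -0.51, 0.14, 0.30 and 0.68 in the same order. None of the receptors passed the size rule in any of the 3 blastocyst comparisons. *Fgfr2* was highest and *Fgfr3* lowest in embryos of the eKO group.

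Among the 6 ligands in blastocysts, *Fgf10* (chromosome 13, 118714699 to 118792573, plus strand) had 1204, 1606 and 1161 counts and took 93.6%, 96.0% and 96.6% of their summed level. When all 18 FGF ligand genes of the lists were counted, *Fgf4*, the ligand of the inner cell mass, led with 35.3, 43.9 and 38.1 CPM per kilobase, or 60.6%, 63.4% and 68.6% of the summed level, and *Fgf10* followed with 23.7%, 26.0% and 23.5%. Its log2 ratio was 0.38 (0.27 to 0.49) for eKO against control and -0.46 (-0.57 to -0.35) for eKO with rLif against eKO. *Fgf1* had 31, 23 and 10 counts, *Fgf9* had 10, 2 and 0, *Fgf18* had 7, 4 and 7, *Fgf7* had 3, 5 and 0, and *Fgf2* had 0, 2 and 0. *Fgf9*, *Fgf18*, *Fgf7* and *Fgf2* thus had at most 10 counts in any blastocyst library. A count of 0 in the treated library allows up to 3 counts at this depth.

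Of the 8 members with enough counts in blastocysts, 0 passed the size rule for eKO against control, 1 for eKO with rLif against control and 0 for eKO with rLif against eKO. The 1 gene was *Fgf9*, with 10 counts against 0, at least 3.40-fold lower. *Fgf9* reached the minimum of 10 counts only through the control library, so its direction was fixed by that filter. Over all 14873 genes, 3.15% passed for eKO against control, 1.29% higher and 1.86% lower. For eKO with rLif against control 4.94% passed, 0.948% higher and 3.99% lower. For eKO with rLif against eKO 3.75% passed, 0.914% higher and 2.83% lower. The point ratio alone, without its interval, exceeded 2-fold for 1, 2 and 2 members.

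The other genes of the pathway were taken from 7 lists of 85 genes, of which 70 had enough counts in each tissue. In the luminal layer 7 were higher and 11 lower for eKO against control, 8 higher and 3 lower for eKO with rLif against control, and 14 higher and 4 lower for eKO with rLif against eKO. In blastocysts these numbers were 1 and 2, 0 and 6, and 0 and 1. Beside the shares of all genes past the rule, 17.2%, 9.16% and 15.6% in the luminal layer and 3.15%, 4.94% and 3.75% in blastocysts, 25.7%, 15.7% and 25.7% of the 70 genes passed it in the luminal layer and 4.29%, 8.57% and 1.43% in blastocysts. For luminal eKO with rLif against eKO, 20% were higher, against 7.88% of all genes. The lists were chosen with earlier results known, and the differences from all genes were not tested. Among the 7 luminal genes higher for eKO against control, *Fgf3*, *Fgf16*, *Klb* and *Spry3* reached the minimum count only through the eKO library. Their direction was fixed by that filter. *Fgf3*, *Fgf16* and *Klb* were also among the 4 lower for eKO with rLif against eKO, with the same limit. Of the 18 genes of the relay from receptor to ERK, 17 had enough counts, among them *Frs2* and *Grb2*, and 0 passed the size rule in any of the 6 comparisons.

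The list of 13 feedback inhibitors, most of which limit ERK signaling, was divided in the luminal layer. It also held *Lgals3*, whose part as such an inhibitor was not checked. For eKO against control 2 of 13 were higher, *Spry2* and *Spry3*, and 3 were lower, *Dusp6*, *Spry1* and *Dusp4*. These were 15.4% and 23.1% of the list, beside 8.08% higher and 9.15% lower over all genes. *Spry3*, with 0, 20 and 3 counts, reached the minimum count only through the eKO library, so its direction was fixed by that filter. *Dusp6*, a phosphatase that limits this cascade, had 2228, 796 and 1792 counts, at log2 -1.67 (-1.79 to -1.55) for eKO against control and 1.31 (1.19 to 1.43) for eKO with rLif against eKO. *Spry1* had 1040, 440 and 758 counts and *Spry2* 247, 659 and 595, so that 2 Sprouty genes lay on opposite sides. *Dusp5* had 179, 168 and 399 counts. With rLif against eKO 5 of the 13 were higher and 0 lower, beside 7.88% higher and 7.77% lower over all genes. The median log2 ratio of the list was -0.53 for eKO against control and 0.65 for eKO with rLif against eKO, beside medians over all genes of 0.0065 and -0.0078.

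Of the 9 genes that respond to ERK signaling, 3 were lower for eKO against control, *Etv5*, *Myc* and *Etv4*, and 0 were higher. The shares over all genes were 9.15% lower and 8.08% higher. *Etv5*, a transcription factor of the ETS family, had 1364, 297 and 1152 counts in the luminal layer, log2 -2.39 (-2.57 to -2.20) for eKO against control. *Etv4*, a close relative, had 35, 0 and 17. *Myc*, a transcription factor for growth, had 4626, 1683 and 3056. The immediate early genes *Fos* and *Egr1* behaved differently, with 2583, 3764 and 8247 counts for *Fos* and 304, 532 and 1358 for *Egr1*. They were highest in the treated library, at log2 1.63 (1.57 to 1.69) and 2.11 (1.93 to 2.30) against control. With rLif against eKO 5 of 9 were higher and 0 lower, and against control 3 were higher and 1, *Ccnd1*, lower. Over all genes 7.88% were higher and 7.77% lower in the first of these comparisons, and 4.12% and 5.04% in the second. The median log2 ratio of the list was -0.97 for eKO against control, 0.29 for eKO with rLif against control and 1.27 for eKO with rLif against eKO.

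**Figure D4:**
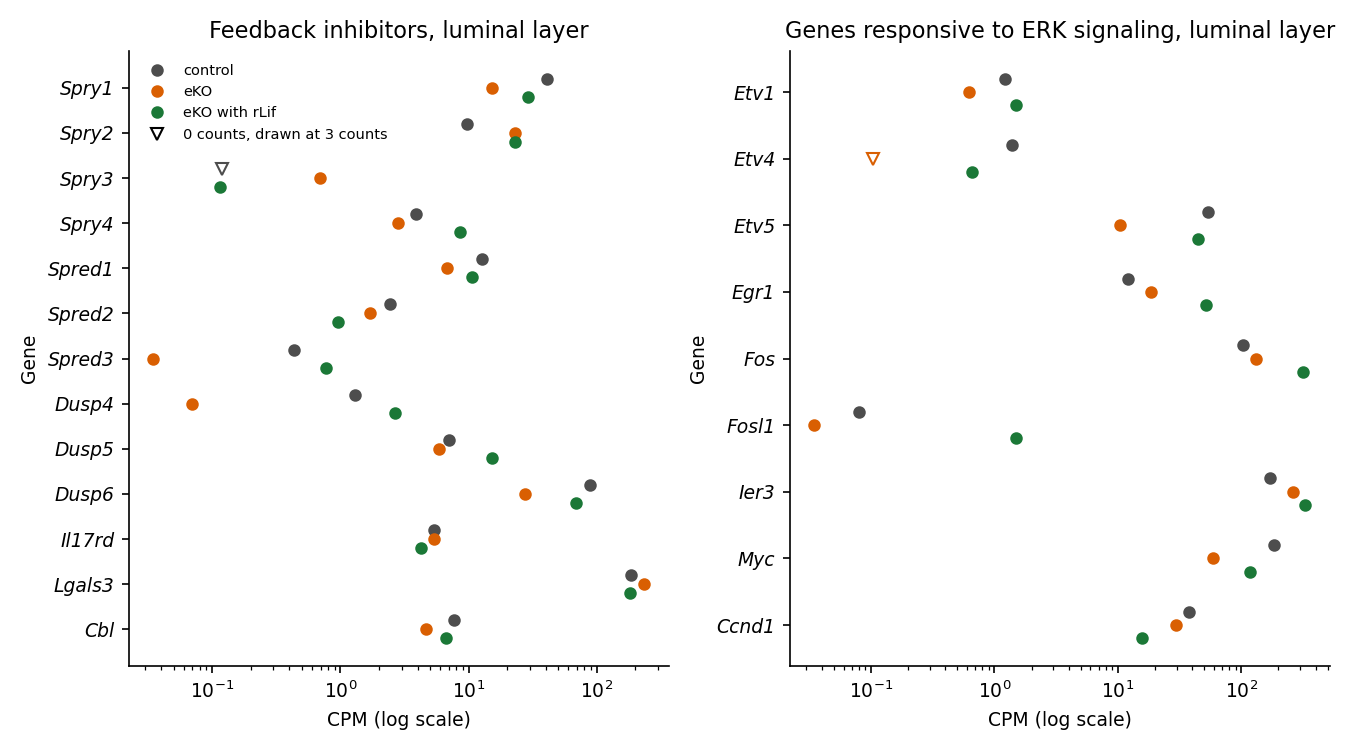
Level in CPM, on a log scale, of the 13 genes listed as feedback inhibitors, *Lgals3* among them (left), and 9 genes that respond to ERK signaling (right) in the 3 luminal libraries. There is 1 point per library, with open triangles for 0 counts drawn at 3 counts. *Dusp6*, *Spry1*, *Etv5* and *Myc* are lowest in the eKO-labelled library, and *Fos* and *Egr1* are highest in the rLif-labelled one.

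Coreceptors and binding proteins gave 1 gene higher and 2 lower of 15 in the luminal comparison of eKO with control. That was 20% of the list, near the 17.2% of all genes past the rule. The lower genes were *Fgfrl1*, an FGF receptor without a kinase domain, with 1134, 354 and 721 counts, and *Sdc1*, a heparan sulfate proteoglycan, with 2394, 1171 and 3696. The higher gene was *Klb*, a coreceptor of endocrine FGFs, with 0, 11 and 0. *Klb* reached the minimum count only through the eKO library, so its direction was fixed by that filter. *Sdc4*, a related proteoglycan, had 12295, 21669 and 33816 counts and was higher with rLif than in control, log2 1.42 (1.39 to 1.45). *Gpc4*, a proteoglycan held in the membrane by a lipid anchor, had 348, 326 and 135 counts and was lower there, log2 -1.41 (-1.71 to -1.12).

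Among 12 enzymes that build, sulfate or cleave heparan sulfate, 2 were higher and 3 lower for eKO against control. Together they were 41.7% of the list, beside 17.2% of all genes, and the difference was not tested. *Hs3st1*, a sulfotransferase, had 4206, 2050 and 9072 luminal counts, log2 -1.22 (-1.30 to -1.15) for eKO against control and 2.29 (2.22 to 2.36) for eKO with rLif against eKO. *Glce*, an epimerase of the chain, had 548, 2414 and 1191 counts and was higher in the eKO library, log2 1.95 (1.82 to 2.09). *Sulf2*, an extracellular sulfatase, had 694, 280 and 718, with a value in the treated library close to control. *Hpse*, heparanase, had 154, 30 and 29 counts and was equally low in both eKO libraries. The remaining higher gene was *Hs6st2*, with 4, 37 and 29 counts.

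Of the 12 other FGF ligand genes, 2 had enough luminal counts. *Fgf3* had 0, 17 and 0 counts and *Fgf16* had 0, 19 and 2, at least 4.98-fold and at least 5.57-fold higher in the eKO library than in control. Both were thus seen almost wholly in the eKO-labelled library, at a far lower level than *Fgf1*. Both reached the minimum count only through that library, so their direction was fixed by the filter. In blastocysts *Fgf4* had 2041, 2599 and 2245 counts and did not pass the size rule. *Fgf5*, a ligand of the early epiblast, had 84, 0 and 6 counts and was at least 28.7-fold lower in embryos from eKO mothers.

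In blastocysts the lists held few genes past the rule. For eKO with rLif against control these were *Flrt3*, *Gpc3*, *Lgals3*, *Fos*, *Fosl1* and *Fgf5*, all lower. *Flrt3*, a membrane protein that binds FGF receptors, had 1383, 910 and 602 counts. *Lgals3*, which encodes galectin-3 and was counted in the list of feedback inhibitors, had 2589, 2017 and 1066. For eKO against control *Fgfbp3*, with 0, 10 and 2 counts, was higher, and *Fgf5* and *Fosl1* were lower. *Fgfbp3* reached the minimum of 10 counts only through the eKO library. For eKO with rLif against eKO *Sdc3*, with 58, 80 and 19 counts, was lower. The 12 stromal markers summed to 168, 175 and 165 CPM in the blastocyst libraries, mostly *Pdgfra*, also a marker of primitive endoderm, and the other 11 summed to 44.7, 29.8 and 25.5 CPM. Among them *Col3a1* had 122, 60 and 28 counts and *Dcn* 164, 84 and 51. Both were lowest in the rLif group, as were *Col1a1*, *Col1a2*, *Hoxa11* and *Twist2*. In contrast, *Vim*, *Lum*, *Thy1* and *Hand2* were lowest in the eKO group, and *Pdgfrb* in control. *Flrt3*, *Gpc3*, *Lgals3* and *Fos* were lowest in the rLif group, and the part of the stromal markers in those ratios was not tested. *Dusp6*, at 4924, 4300 and 3676 counts, and *Etv5*, at 2371, 2522 and 2640, did not pass the rule.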

How the data were processed

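Per the labels and the study's methods, libraries were made with the SMART-seq v4 kit from low RNA input, and the submitters' processing notes name HISAT2, featureCounts and Subread 2.0.0 and the builds GRCm38 and mm10. The authors deposited 1 table per tissue of whole-number read counts per gene, with exon positions and lengths. The methods describe the output as RPKM, but the values are counts. The annotation and strand setting were not given in the sources used here. *Fgf2*, *Fgf10*, *Fgfr1* and *Fgfr3* overlap other genes in GENCODE M21, and without strand those reads cannot be told apart.

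Library sizes were scaled within each tissue by TMM (edgeR 4.0.16, R 4.3.3), so levels were not compared between tissues by ratio. Counts have exact Poisson intervals and ratios exact Clopper-Pearson intervals (SciPy 1.17.1), at 95%, for counting error only, since reads without molecular identifiers are not independent molecules. Total counts were 23850565, 28460465 and 27809527 in the luminal and 18996158, 19638852 and 19417359 in the blastocyst libraries (control, eKO, eKO with rLif). A count of 0 allows up to 3 counts. With 1 library per group no count test was run. The steps were tested on simulated data. Named pathway genes were, in each list, the 4 with the highest CPM among those past the size rule in a tissue, and the other genes behind a small count were named after their values were seen. The members and lists were chosen with earlier results of these data known. Alternatives were DESeq2 1.42.0 size factors, total counts, the upper quartile, other count minimums, limits and pseudocounts. Marker sums without the most abundant marker and ligand shares over all listed ligands were added after seeing the data.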

Additional observations from a re-analysis of the deposited data

Results flagged for a closer look

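For 4 genes the same comparison went in opposite directions in the luminal layer and in blastocysts, with both intervals off 0. The difference between the tissues was not tested, and each direction rests on single libraries. *Fgfr4* for eKO against control was at a log2 ratio of -3.30 in the luminal layer, computed against the floor of 3 counts, and at 0.16 in blastocysts. *Fgf1* for eKO with rLif against control was at 1.75 and -1.66, the latter from 10 against 31 counts. *Fgfr1* in the same comparison was at -1.19 and 0.17. *Fgfr2* was at 0.30 and -0.18 for eKO with rLif against control and at 0.15 and -0.51 for eKO with rLif against eKO, and its luminal value in the last comparison was 0.038 when total counts were used for scaling.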

How the results depend on the processing

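No paired analysis was possible because each group was 1 library, and for the same reason no replicate could be left out. DESeq2 size factors, total counts, upper quartile scaling and a minimum of 1 count left every number of members and of pathway genes past the size rule within 1.5 times its value. The largest shift of a member's log2 ratio was 0.0053, 0.18 and 0.095 under the 3 scalings, a shift common to all genes of that comparison. The sign changed for luminal *Fgfr3*, eKO against control, from 0.0067 to -0.062 with total counts. In the order eKO against control, eKO with rLif against control and eKO with rLif against eKO, a log2 limit of 0 gave 62, 51 and 56 luminal and 43, 45 and 42 blastocyst pathway genes, 5, 5 and 6 blastocyst members, and 8 and 6 luminal members in the first 2 comparisons. A limit of 2 gave 5, 1 and 4 luminal and 1, 2 and 0 blastocyst pathway genes, and for eKO with rLif against control 1 luminal member and 0 in blastocysts. A minimum of 50 counts gave 3 and 1 luminal members in the first 2 comparisons, since *Fgf7* and *Fgfr4* were then not tested, 0 blastocyst members for eKO with rLif against control and 1 blastocyst pathway gene for eKO against control. The point ratio gave 1, 2 and 2 blastocyst members, 9, 14 and 11 blastocyst pathway genes and 22 luminal pathway genes for eKO with rLif against control. With a pseudocount of 0.5, 2 of the 3 genes nearest to *Fgf1* and 1 of the 3 nearest to *Fgf9* were shared. Counts near the floor limit *Fgf2*, *Fgf7* and *Fgfr4*.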
